A study of Homo sapiens with 36 samples.

Results

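The genes described here are the human replication-dependent histone genes, which encode the core histones H2A, H2B, H3 and H4 and the linker histone H1. Members were taken from the gene table by their current symbols, matched through the Entrez GeneID: H1-1 to H1-6 and every numbered H2AC, H2BC, H3C and H4C gene. Of 71 rows with such a symbol, 2 pseudogenes were left out, and 7 rows above 0 in fewer than 3 libraries (H1-1, H2AC1, H2BC1, H3C14, H3C15, H4C6 and H4C7) were left out too, 3 of them at 0 in every library. The remaining 62 members, of 26468 rows in all, were 5 H1, 16 H2A, 17 H2B, 11 H3 and 13 H4 genes. A total of 58 members were above 0 in at least 3 of the 18 libraries without drug, and 4 (H2AC18, H4C11, H4C14 and H4C15) entered only with the help of the treated libraries. Of these 4 only H2AC18 passed as higher, and its call is not read as support since its entry depended on the treated libraries. The cells were 6 human colon cancer lines, COLO205, COLO320, HCT116, HCT-15, HT-29 and SW480, each harvested while growing in log phase. Each line was treated for 24 h with 0.5 µM JQ1, a small molecule that displaces the BET bromodomain proteins from acetylated histones, or with its solvent DMSO. RNA was sequenced in 3 libraries per line and treatment, 36 in all, and the comparison addresses how JQ1 changed the transcripts of each line. Whether the 3 libraries of a group stem from different cultures is not in the labels, and the p-values below therefore reflect the spread among these libraries only, which may be technical. Each line stands for 1 tumour.

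Replication-dependent histone genes are expressed mainly in S phase, when new DNA must be packed into nucleosomes. Their mRNAs have no introns and as a rule end in a short hairpin, the histone stem-loop, in place of a poly(A) tail; the stem-loop binding protein SLBP holds it and governs processing, export, translation and decay. Some of these genes also yield polyadenylated transcripts that run on past the hairpin, and these are known from cells that have left the cell cycle. The library kit is one of Illumina's TruSeq RNA kits, which commonly select poly(A) RNA, but the labels do not state how RNA was selected, nor whether strand was kept. A level given here is therefore the level of the transcripts that the libraries captured.

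Levels are given in RPKM, reads per kilobase of gene model scaled to library size, as the authors deposited them. Each library held between 18.8 M and 53.1 M reads in genes (median 24.5 M). Changes are differences in log2(RPKM + 0.5), JQ1 minus DMSO, a scale that understates the change of low genes, and folds are these differences taken out of the log. Tests are 2-sided tests in limma over all 22150 genes that were above 0 in at least 3 libraries, with Benjamini-Hochberg adjustment over all of them and a threshold of 0.05 on the adjusted p. RPKM is a share of each library, and in bulk RNA a change in the number of cells at a given stage cannot be told apart from a change in RNA per cell.

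Marker genes were summed per library as a check of the cells. The 8 epithelial markers summed to between 1331 and 4041 RPKM without drug in 5 lines and to between 1151 and 1163 in COLO320. In COLO320 CDX2 alone gave 1099 RPKM, KRT18 35.8 and KRT8 20.6, while EPCAM (1.37), KRT20, KRT19, VIL1 and CDH1 (0.00736) were low. Single markers were low elsewhere too, as VIL1 in HCT116 (0.106), CDX2 in COLO205 (0.33) and KRT20 in HCT116, SW480, COLO205 and HCT-15 (at most 0.523). With JQ1 the epithelial sum was higher in those 5 lines, most in HCT-15 (2323 to 2346 without drug, 7072 to 7164 with it), and lower in COLO320 (888 to 921). The markers did not move together. KRT8, KRT18 and KRT19 rose in each of those 5 lines. VIL1 fell in HCT-15 (log2 change -2.28) and SW480 (-1.09), and EPCAM fell in HCT116, SW480 and COLO205. The 4 endothelial markers summed to at most 0.2 RPKM. The 6 fibroblast markers summed to at most 3.38 RPKM except in COLO320 without drug (15.5 to 15.8), where COL3A1 fell by 2.12 on the log2 scale with JQ1. The 5 leukocyte markers summed to at most 8.56 RPKM outside COLO205, which had 157 to 162 without drug and 101 to 110 with JQ1, nearly all CD68. The 4 neuroendocrine markers went from between 6.10 and 6.48 to between 11.9 and 12.6 RPKM in SW480, stayed under 3 RPKM elsewhere, and SYP among them rose in 5 lines. The part of these genes in the results was not tested.

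Averaged over the 6 lines, histone genes of every class were higher with JQ1 and none was lower. Of the 62 members, 50 rose, 0 fell and 12 did not pass the test in limma, against 32% of all genes tested that were higher and 41.8% that were lower. No member was lower at an unadjusted p under 0.05 either, and the count of lower members was also 0 with limma's voom on the reads recovered from the RPKM values. A rise of at least 2-fold was reached by 28 members, against 0.935% of all genes. The median change of the members was 0.94 on the log2 scale, beside -0.01 for all genes. When each line counted as 1 sample, so that a rise had to stand out from the spread between lines, 33 members rose. The share of all genes under that setting is not given, and the 32% above belongs to the fit on all libraries.

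The rise was not even among the 5 classes. All 5 H1 genes rose, with a median log2 change of 1.12. In the H2A class 14 of 16 rose with a median of 0.91, among them H2AC18, which had 2 reads in all DMSO libraries and 39 in all JQ1 libraries, and in the H2B class 15 of 17 with a median of 1.04. Of the 11 H3 genes 10 rose, with a median of 0.93. Among the 13 H4 genes 6 rose and the median was 0.21, the lowest of the classes. Many H4 genes were read at low levels, where the scale understates a change, and the part of level in this order was not tested. By summed RPKM the order of classes differed. In SW480 the ratio of JQ1 to DMSO was highest for H4, 12.9, beside 9.63 for H3 and 5.92 for H1. In HCT116, HT-29 and HCT-15 H4 had the lowest ratio. Over the 44 members that reached 1 RPKM in 3 or more libraries the H4 median was 1.06 and that of H3 was 0.98, but a gene can pass this filter through its JQ1 libraries alone, so it favours genes that rose and the order of classes under it is not read. Split by the level without drug, all 15 members with a DMSO mean of at least 1 RPKM rose, with a median of 2.52, and 35 of the 47 below it rose, with a median of 0.65. The split is a description, since the DMSO level also enters the change.

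**Figure D1:**
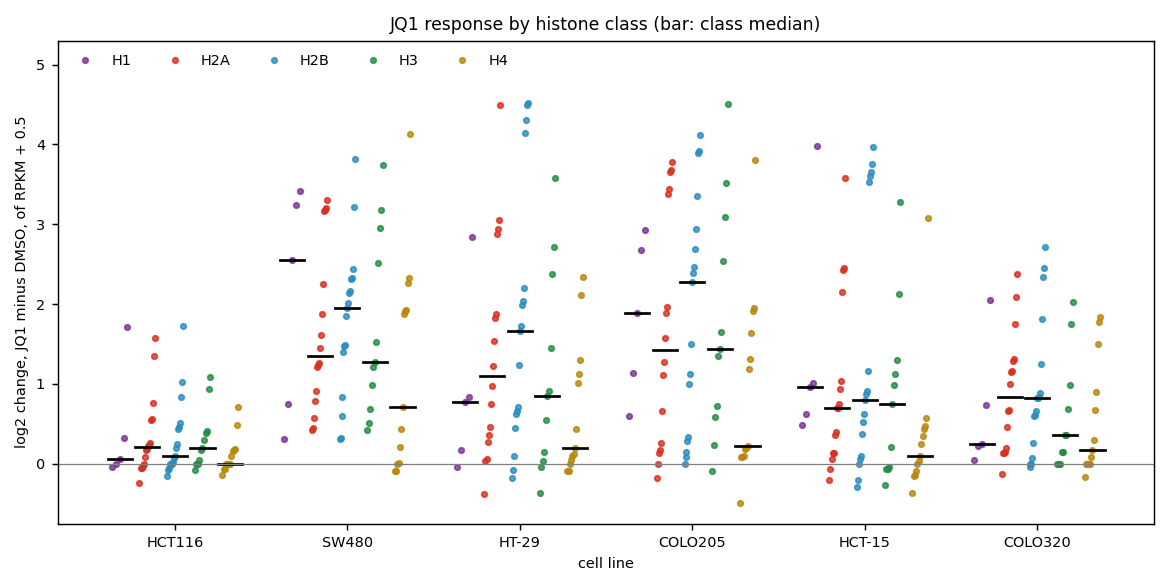
Log2 change of RPKM + 0.5, JQ1 minus DMSO (vertical axis), of each of the 62 members in each of the 6 lines (horizontal axis); each point is 1 gene, coloured by class, and bars are class medians. SW480 and COLO205 hold the highest medians, in each class, HCT116 medians reach 0.21 at most, and H4 has the lowest median in each line.

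The 6 lines differed in how many members responded. In SW480 54 members rose (26.3% of all genes were higher there), and 40 of them at least 2-fold (2.33% of all genes). In COLO205 44 rose (25.9% of all genes) and 38 at least 2-fold (2.48%), and in HT-29 38 rose (27.3%) and 28 at least 2-fold (2.92%). In COLO320 35 rose (23.1%), 18 of them at least 2-fold (0.858%), and in HCT-15 33 rose (25.5%), 18 at least 2-fold (2.41%). HCT116 stood lowest with 13 of 62 members, 21.0%, beside 23.5% of all genes, a share near the background; 6 of its members rose at least 2-fold, against 0.998% of all genes. Median changes of the 62 members on the log2 scale were 1.51 in SW480, 1.39 in COLO205, 0.84 in HT-29, 0.63 in COLO320, 0.55 in HCT-15 and 0.16 in HCT116. These counts and medians also depend on the untreated level, since low genes give few calls and understated changes. The members' summed RPKM without drug was 504.5 in SW480 and 27.8 in HCT116. By the ratio of the sums, JQ1 to DMSO, HCT-15 came first (10.7), SW480 had 5.43 and HCT116 was again lowest (2.22). The part of level was not tested.

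In limma 0 members fell in each of the 6 lines, at an adjusted p or at an unadjusted p under 0.05, whereas 27.7% of all genes were lower in HCT116, 31.6% in SW480, 28.2% in HT-29, 29.7% in COLO205, 26.3% in HCT-15 and 29.8% in COLO320. With voom on the recovered reads the count of lower members was 0 in 5 lines and 2 in HT-29, H2BC10 and H3C11, which did not pass in the fit on RPKM (adjusted p in limma 0.123 for H2BC10 and 0.0953 for H3C11) and were named after their values were seen. Counts were also made from the libraries alone, without a model, on the same values, so they are no separate support. All 3 JQ1 libraries lay above all 3 DMSO libraries for 54 members in SW480 (26.5% of all genes), 43 in COLO205 (26.6%), 40 in HT-29 (28.4%), 35 in HCT-15 (27.3%), 33 in COLO320 (24.7%) and 17 in HCT116 (24.7%). In no line did a member have all its JQ1 libraries below all its DMSO libraries, which 28.6% of all genes had in HCT116, 31.6% in SW480, 29.3% in HT-29, 30.5% in COLO205, 28.2% in HCT-15 and 31.4% in COLO320. A gene with a DMSO library at 0 in a line cannot meet that condition there. The outcome was thus partly fixed for low members, of which 47 had a DMSO mean under 1 RPKM. The shares of all genes are not matched for level.

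Counted by member, 11 genes rose in all 6 lines, 13 in 5 lines and 15 in 4 lines, while 7 rose in none. The same count over all genes was not made, so these numbers only describe the members. The 11 were H1-2, the H2A genes H2AC6, H2AC11, H2AC17 and H2AC25, the H2B genes H2BC4, H2BC5, H2BC12, H2BC17 and H2BC21, and H3C10. The largest change of a member was in SW480 for 29 genes and in COLO205 for 19, and the smallest was in HCT116 alone for 36, with 3 more in which HCT116 tied with other lines. The JQ1 effect differed between lines, by an F test in limma at an adjusted p under 0.05, for 49 of 62 members, or 79.0%, beside 77.6% of all genes, a share near the background. The 13 members without such a difference had means from 0.00700 RPKM (H4C15) to 0.698 RPKM (H3C12), so all lay below 1 RPKM.

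**Figure D2:**
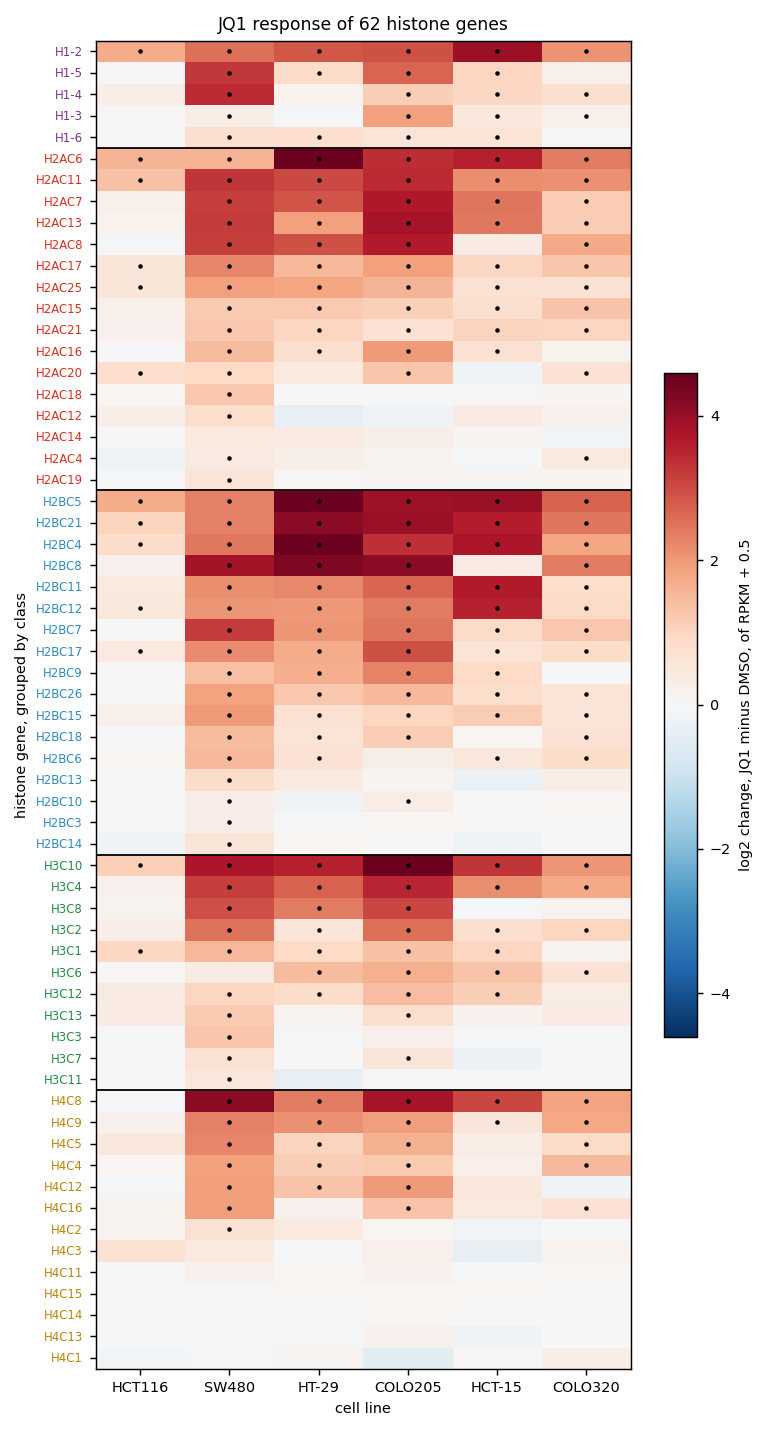
Log2 change of RPKM + 0.5, JQ1 minus DMSO, of 62 histone genes (rows, by class and average change) in 6 lines (columns); red is higher with JQ1, blue lower, and a dot marks an adjusted p under 0.05. The dots thin out towards the lower rows of each class and in the HCT116 column, where 13 of 62 members carry one, and no blue cell carries a dot.

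The bases upstream of the start site are shown for the gene with the largest average rise in each class, and for H2AC20 and H2BC26. Among genes with a mean of at least 1 RPKM, H2AC20 and H2BC26 had the smallest average change in their classes. JQ1 libraries help a gene to reach that mean. The average log2 change was 0.64 for H2AC20 and 1.01 for H2BC26, the latter above the median of all members (0.94). Sequences are the 250 bases before the RefSeq start on build GRCh38.p14, read 5′ to 3′ on the strand of the gene, with searched motifs in capitals on either strand. The motifs, none of which contains another, were the TATA box (TATAAA), the CCAAT box (CCAAT), the octamer (ATTTGCAT), which the factor POU2F1 is known to bind in H2B promoters, the H1 box (AAACACA) and an E2F site (TTTGGCGC). H1-2 lies at chr6:26056471-26056720 (minus strand), H2AC6 at chr6:26123922-26124171 (plus strand), H2BC5 at chr6:26157871-26158120 (plus strand), H3C10 at chr6:27809801-27810050 (plus strand), H4C8 at chr6:26285535-26285784 (minus strand), H2AC20 at chr1:149886668-149886917 (plus strand) and H2BC26 at chr1:228457853-228458102 (plus strand).
H1-2: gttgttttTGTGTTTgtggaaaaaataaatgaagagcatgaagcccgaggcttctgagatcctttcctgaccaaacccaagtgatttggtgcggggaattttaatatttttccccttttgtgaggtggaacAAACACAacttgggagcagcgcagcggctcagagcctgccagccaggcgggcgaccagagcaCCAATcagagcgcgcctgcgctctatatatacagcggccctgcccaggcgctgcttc
H2AC6: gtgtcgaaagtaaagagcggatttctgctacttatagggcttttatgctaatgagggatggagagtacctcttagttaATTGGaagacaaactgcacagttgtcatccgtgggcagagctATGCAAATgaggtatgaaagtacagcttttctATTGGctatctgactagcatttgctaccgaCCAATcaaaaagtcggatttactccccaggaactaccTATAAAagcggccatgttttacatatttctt
H2BC5: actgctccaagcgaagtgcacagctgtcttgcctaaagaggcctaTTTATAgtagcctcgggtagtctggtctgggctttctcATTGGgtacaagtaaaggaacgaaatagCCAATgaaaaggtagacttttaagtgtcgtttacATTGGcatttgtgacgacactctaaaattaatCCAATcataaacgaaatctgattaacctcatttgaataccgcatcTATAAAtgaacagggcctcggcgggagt
H3C10: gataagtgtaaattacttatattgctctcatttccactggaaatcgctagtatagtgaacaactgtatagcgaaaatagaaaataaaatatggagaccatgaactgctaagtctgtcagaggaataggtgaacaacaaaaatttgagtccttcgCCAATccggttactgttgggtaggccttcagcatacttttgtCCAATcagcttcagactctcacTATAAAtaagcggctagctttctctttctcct
H4C8: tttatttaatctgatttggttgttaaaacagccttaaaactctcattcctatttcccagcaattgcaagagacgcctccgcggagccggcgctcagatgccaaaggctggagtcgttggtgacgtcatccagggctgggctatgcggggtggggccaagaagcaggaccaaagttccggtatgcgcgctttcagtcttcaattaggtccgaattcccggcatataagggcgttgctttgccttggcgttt
H2AC20: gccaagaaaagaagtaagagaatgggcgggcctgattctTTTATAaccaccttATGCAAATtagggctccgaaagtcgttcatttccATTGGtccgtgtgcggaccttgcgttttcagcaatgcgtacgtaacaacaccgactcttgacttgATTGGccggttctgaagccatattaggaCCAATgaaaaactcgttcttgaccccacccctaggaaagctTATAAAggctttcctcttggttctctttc
H2BC26: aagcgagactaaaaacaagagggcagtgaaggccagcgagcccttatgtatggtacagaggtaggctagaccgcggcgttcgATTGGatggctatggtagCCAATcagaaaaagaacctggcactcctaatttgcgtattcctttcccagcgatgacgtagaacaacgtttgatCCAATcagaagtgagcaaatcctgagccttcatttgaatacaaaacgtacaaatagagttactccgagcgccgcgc

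RefSeq promoters were matched for 57 of the 62 members (H3C12, H2AC12, H3C11, H4C3 and H4C1 had no entry in the table used). CCAAT occurred within 250 bases of 48 of them, 84.2%, beside 33.0% of 27305 promoters of the same length, and it was in all matched H1, H2A, H2B and H3 genes and in 2 of 11 H4 genes. TATAAA was in 36 of 57, 63.2%, beside 11.1% of all promoters. The octamer was in 24 of 57, 42.1%, beside 1.66%: in 13 of 17 H2B, 10 of 15 H2A and 1 of 9 H3 genes, and in no H1 or H4 gene. AAACACA was in all 5 H1 genes and in no other member, beside 4.95% of all promoters, and TTTGGCGC was in none of the members and in 0.553% of all promoters. The strongly rising H2AC6 and the weakly rising H2AC20 both hold TATA, CCAAT and octamer letters, and the strongly rising H4C8 holds none of the 5 motifs. The H2B genes shown do differ: H2BC5 holds TATA and CCAAT letters, and H2BC26, with the smaller rise, holds CCAAT alone. The part of these motifs in the response was not tested. These are matches of letters in a fixed window and say nothing of binding.

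The linker histone H1 sits on the DNA between nucleosomes and closes the chromatin fibre. H1-2 (GeneID 3006) was the most abundant member, with 29.4% of the summed RPKM of all members over the 36 libraries. Without drug, H2AC25 led the members in HCT116 and COLO320, and H2BC12 in HT-29, COLO205 and HCT-15. In SW480, whose high levels weigh most in that share, H1-2 led in both treatments, and it led in HCT116 and HCT-15 with JQ1. Its 3 libraries per group read 4.56, 4.54 and 5.24 RPKM with DMSO and 19.03, 16.7 and 14.9 with JQ1 in HCT116, and 3.66, 3.77 and 4.08 RPKM with DMSO and 16.7, 16.7 and 18.9 with JQ1 in COLO320. In SW480 they read 187, 172 and 182 RPKM with DMSO and 1046, 1029.6 and 1093 with JQ1, and in HT-29 4.05, 3.397 and 4.03 RPKM with DMSO and 32.5, 28.5 and 30.5 with JQ1. COLO205 gave 19.7, 18.2 and 20.04 RPKM with DMSO and 155, 148 and 150.3 with JQ1, and HCT-15 10.5, 12.2 and 10.3 RPKM with DMSO and 184, 176 and 182 with JQ1. Every JQ1 library of H1-2 was above every DMSO library of its line, and the HCT-15 libraries, which lay below those of COLO205 without drug, lay above them with JQ1. The change of H1-2 was largest in HCT-15, 15.8-fold (adjusted p = 1.93e-25 in limma), and smallest in HCT116, 3.28-fold (adjusted p = 3.41e-17 in limma). Its average log2 change over the lines was 2.68 (SE 0.031, adjusted p = 2.36e-31 in limma).

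H1-5 (GeneID 3009), another somatic linker histone, was measured from few reads without drug. In SW480 it read 0.379, 0.149 and 0.538 RPKM with DMSO and 7.11, 7.497 and 7.67 with JQ1, in COLO205 0.155, 0.188 and 0.357 RPKM with DMSO and 4.48, 3.69 and 4.36 with JQ1. In HT-29 it read 0.224, 0.3096 and 0.226 RPKM with DMSO and 1.04, 0.785 and 0.729 with JQ1, and in HCT-15 0.141, 0.403 and 0.3397 RPKM with DMSO and 1.18, 1.03 and 1.03 with JQ1. These 4 lines had no overlap between treatments, and H1-5 rose in each, by 9.43-fold in SW480 (adjusted p = 2.51e-17 in limma) and by 1.79-fold in HT-29 (adjusted p = 1.05e-05 in limma). In COLO320 H1-5 read 0.317, 0.221 and 0.0445 RPKM with DMSO and 0.264, 0.268 and 0.362 with JQ1 and did not pass the test (adjusted p = 0.228 in limma). In HCT116 it had 1 read in the 3 DMSO libraries and 0 in the 3 JQ1 libraries, where a change was not detectable at this depth. With each line as 1 sample, the average rise of H1-5 was lost. Of the other H1 genes, H1-4 averaged 1.12 on the log2 scale and rose in 4 lines, most in SW480 (10.7-fold), and H1-3 averaged 0.49. H1-6, the linker histone of the testis, went from a mean of 0.0184 to 0.239 RPKM and rose in 4 lines, on 6 reads over all DMSO libraries and 88 over all JQ1 libraries.

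H2A pairs with H2B to form the outer dimers of the nucleosome. H2AC6 (GeneID 8334) had the largest average rise of the H2A genes. It read 0.764, 0.896 and 1.17 RPKM with DMSO and 4.44, 3.75 and 3.23 with JQ1 in HCT116, and 31.8, 27.7 and 27.02 RPKM with DMSO and 83.9, 86.8 and 97.3 with JQ1 in SW480. HT-29 libraries gave 2.998, 2.69 and 2.29 RPKM with DMSO and 71.9, 66.4 and 73.4 with JQ1, and in COLO205 10.2, 9.16 and 11.8 RPKM with DMSO and 115, 114 and 108 with JQ1. HCT-15 gave 2.101, 2.396 and 1.66 RPKM with DMSO and 30.4, 28.4 and 30.8 with JQ1, and COLO320 1.64, 1.73 and 2.06 RPKM with DMSO and 10.8, 10.9 and 12.8 with JQ1. Treatments did not overlap in any line, and HT-29, which had 2.66 ± 0.355 RPKM (SD, n = 3) without drug, came to 70.6 ± 3.68 RPKM with JQ1, beside 89.3 ± 7.07 in SW480. The rise of H2AC6 was 22.6-fold in HT-29 (adjusted p = 8.15e-23 in limma) and 2.98-fold in HCT116 (adjusted p = 2.47e-12 in limma). Its average log2 change was 2.84 (SE 0.047, adjusted p = 8.44e-28 in limma).

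H2AC11 (GeneID 8969) had the next largest rise among H2A genes. It read 0.837, 0.491 and 0.722 RPKM with DMSO and 2.31, 2.104 and 3.21 with JQ1 in HCT116, and 3.76, 3.23 and 3.26 RPKM with DMSO and 36.5, 38.2 and 39.3 with JQ1 in SW480. The HT-29 libraries held 0.711, 0.164 and 0.628 RPKM with DMSO and 7.35, 7.39 and 7.78 with JQ1, and in COLO205 0.657, 1.49 and 1.29 RPKM with DMSO and 16.7, 17.2 and 16.96 with JQ1. HCT-15 gave 0.892, 0.781 and 1.35 RPKM with DMSO and 5.91, 6.03 and 6.39 with JQ1, and COLO320 1.08, 0.911 and 0.776 RPKM with DMSO and 5.03, 5.27 and 6.39 with JQ1. Without drug every library outside SW480 was under 1.5 RPKM, and in each line the JQ1 libraries were clear of the DMSO libraries. The rises of H2AC11 lay between 2.56-fold in HCT116 and 10.9-fold in COLO205 (adjusted p = 3.59e-07 and 1.41e-15 in limma).

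H2AC25 (GeneID 92815), from the small histone group at the far end of the long arm of chromosome 1, was the H2A gene with the highest level without drug. It read 4.51, 5.71 and 6.77 RPKM with DMSO and 7.79, 8.25 and 9.32 with JQ1 in HCT116, and 18.2, 15.6 and 19.3 RPKM with DMSO and 61.6, 63.4 and 74.7 with JQ1 in SW480. Values in HT-29 were 7.23, 7.81 and 6.302 RPKM with DMSO and 28.4, 27.005 and 23.9 with JQ1, and in COLO205 10.7, 11.8 and 11.6 RPKM with DMSO and 34.5, 33.8 and 36.2 with JQ1. HCT-15 gave 3.21, 3.92 and 2.503 RPKM with DMSO and 5.51, 5.79 and 4.99 with JQ1, and COLO320 18.4, 15.5 and 16.4 RPKM with DMSO and 24.6, 25.3 and 30.9 with JQ1. The groups did not overlap, yet the steps were smaller than those of H2AC6: 3.69-fold in SW480 and 1.47-fold in HCT116 (adjusted p = 2.36e-13 and 0.000494 in limma). Among DMSO groups H2AC25 was highest in SW480 (17.7 ± 1.91 RPKM, SD, n = 3) and COLO320 (16.7 ± 1.48), which differ by less than the SD of either. The H2A members that did not pass on average were H2AC12 (log2 change 0.18) and H2AC14 (0.18), with means of 0.331 and 0.138 RPKM under DMSO.

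The H2B class held the largest average rise of all members. H2BC5 (GeneID 3017) read 0.802, 1.402 and 1.25 RPKM with DMSO and 5.08, 4.28 and 5.33 with JQ1 in HCT116, and 25.7, 25.4 and 23.5 RPKM with DMSO and 124, 127 and 127 with JQ1 in SW480. HT-29 had 1.53, 1.36 and 2.19 RPKM with DMSO and 48.2, 49.1 and 50.1 with JQ1, and in COLO205 4.099, 4.796 and 3.905 RPKM with DMSO and 70.5, 67.7 and 71.6 with JQ1. HCT-15 gave 1.98, 2.01 and 2.47 RPKM with DMSO and 41.3, 41.8 and 39.9 with JQ1, and COLO320 1.51, 1.55 and 1.41 RPKM with DMSO and 12.1, 12.9 and 12.9 with JQ1. The lowest JQ1 library of each line was more than 2-fold above its highest DMSO library. The rise of H2BC5 was 22.9-fold in HT-29, 15.7-fold in HCT-15 and 3.301-fold in HCT116, with adjusted p of 2.31e-23, 7.41e-22 and 1.23e-13 in limma. Its average log2 change was 3.19 (SE 0.045, adjusted p = 2.01e-29 in limma).

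H2BC12 (GeneID 85236) was the most abundant core histone gene over all libraries, with 22.4% of the members' summed RPKM, a share in which SW480 weighs most. It did not lead the core histone genes in every group. H2AC25 was above it in HCT116 in both treatments and in COLO320 without drug. In HT-29 with JQ1, H2AC6 and H2BC5 were above it. H2BC12 read 4.202, 5.33 and 5.05 RPKM with DMSO and 7.397, 7.31 and 6.61 with JQ1 in HCT116, and 16.6, 16.1 and 17.2 RPKM with DMSO and 30.9, 30.96 and 31.8 with JQ1 in COLO320. In SW480 it read 146, 143 and 145 RPKM with DMSO and 595, 581 and 583 with JQ1, and in COLO205 44.6, 46.8 and 43.6 RPKM with DMSO and 246, 239.9 and 231 with JQ1. HT-29 gave 10.97, 10.8 and 11.9 RPKM with DMSO and 47.3, 43.9 and 46.3 with JQ1, and HCT-15 10.5, 12.1 and 11.04 RPKM with DMSO and 135, 135 and 132 with JQ1. HT-29 and HCT-15 had the same level without drug (11.2 ± 0.579 and 11.2 ± 0.833 RPKM, SD, n = 3) and parted with JQ1, at 45.8 ± 1.74 and 134 ± 1.75 RPKM. The rise was 11.5-fold in HCT-15 and 1.42-fold in HCT116 (adjusted p = 5.18e-27 and 7.67e-09 in limma), and the effect differed between lines (adjusted p = 1.09e-21, F test in limma). The gene model of H2BC12 spans that of H4C9, and 74.1% of the 50-base windows of its annotated transcripts occur in other genes too, so its reads may be shared.

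H2BC21 (GeneID 8349), on chromosome 1, had the smallest adjusted p for a difference of the JQ1 effect between lines, 1.00e-21 in limma's F test. It read 0.256, 0.204 and 0.342 RPKM with DMSO and 1.02, 1.12 and 1.04 with JQ1 in HCT116, and 13.8, 14.01 and 14.2 RPKM with DMSO and 72.5, 70.98 and 71.9 with JQ1 in SW480. The readings in HT-29 were 0.876, 0.715 and 0.964 RPKM with DMSO and 23.6, 23.1 and 23.5 with JQ1, and in COLO205 2.502, 2.004 and 2.07 RPKM with DMSO and 41.2, 40.1 and 39.1 with JQ1. HCT-15 gave 0.682, 0.636 and 0.694 RPKM with DMSO and 14.02, 13.9 and 13.2 with JQ1, and COLO320 4.32, 4.49 and 4.82 RPKM with DMSO and 26.5, 26.6 and 28.1 with JQ1. The order of the lines changed with treatment: all COLO320 libraries were above those of COLO205 without drug and below them with JQ1. The rise of H2BC21 was 17.7-fold in HT-29, 15.1-fold in COLO205 and 2.04-fold in HCT116 (adjusted p = 3.91e-28, 1.60e-27 and 3.12e-14 in limma). The H2B members that did not pass on average were H2BC3 and H2BC14, at 0.0201 and 0.133 RPKM under DMSO.

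**Figure D3:**
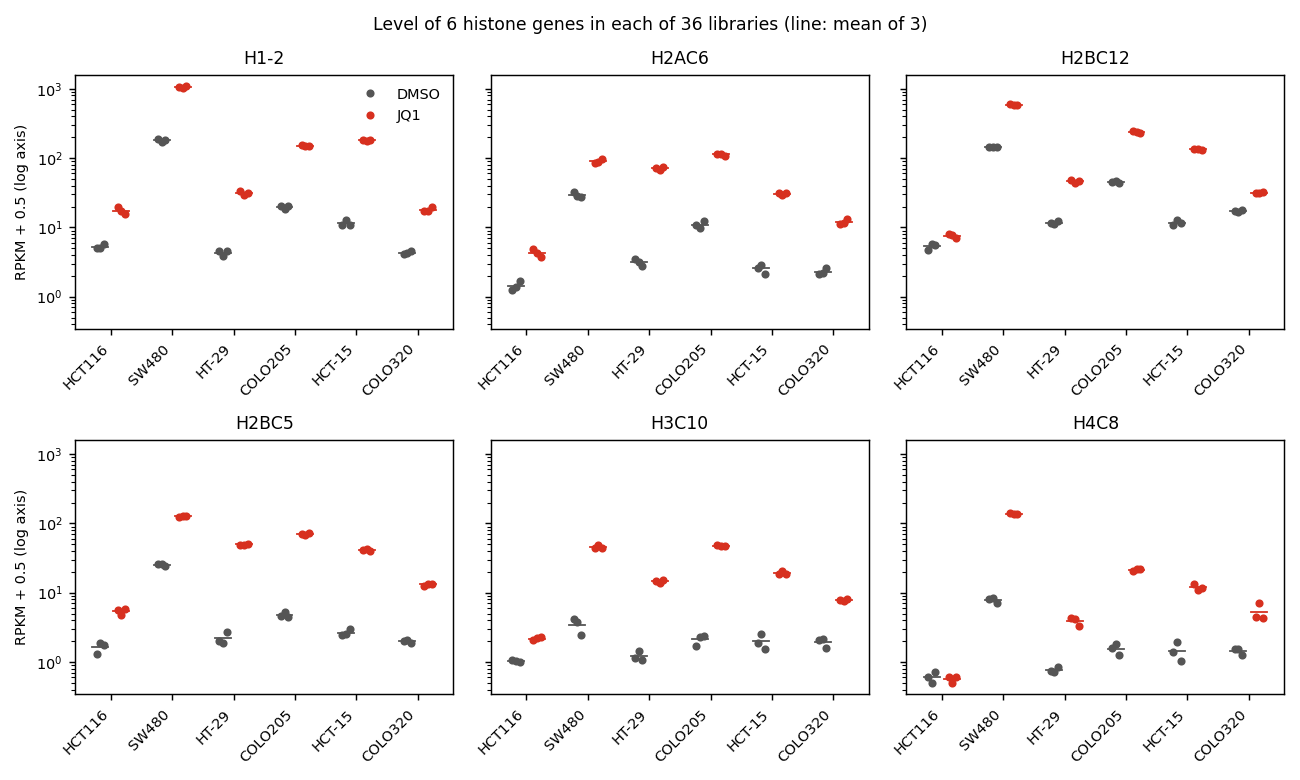
RPKM + 0.5 on a log axis (vertical) of 6 histone genes in the 36 libraries, by line (horizontal), DMSO in grey and JQ1 in red; each point is 1 library and each line the mean of 3. The 2 treatments stand apart in each of the 6 lines for H1-2, H2AC6, H2BC12, H2BC5 and H3C10, and overlap for H4C8 in HCT116.

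H3 and H4 form the inner tetramer of the nucleosome, and H3 carries many of the best known histone modifications. H3C10 (GeneID 8357) led the H3 class. It read 0.561, 0.517 and 0.507 RPKM with DMSO and 1.56, 1.69 and 1.78 with JQ1 in HCT116, and 3.72, 3.24 and 1.96 RPKM with DMSO and 43.5, 47.5 and 43.03 with JQ1 in SW480. For HT-29 they were 0.655, 0.948 and 0.566 RPKM with DMSO and 14.3, 13.2 and 14.6 with JQ1, and in COLO205 1.21, 1.78 and 1.87 RPKM with DMSO and 47.8, 47.2 and 46.7 with JQ1. HCT-15 gave 1.41, 2.02 and 1.06 RPKM with DMSO and 17.97, 19.9 and 17.9 with JQ1, and COLO320 1.59, 1.62 and 1.11 RPKM with DMSO and 7.36, 6.98 and 7.63 with JQ1. No line overlapped, and the SW480 and COLO205 libraries, at 2.97 ± 0.911 and 1.62 ± 0.359 RPKM without drug (SD, n = 3), met at 44.7 ± 2.48 and 47.2 ± 0.576. The rise of H3C10 was 22.7-fold in COLO205 and 2.11-fold in HCT116 (adjusted p = 8.28e-20 and 1.09e-06 in limma). Its average log2 change was 3.04 (SE 0.064, adjusted p = 1.85e-25 in limma).

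H3C4 (GeneID 8351) rose in 5 lines. It read 5.16, 4.23 and 5.72 RPKM with DMSO and 47.9, 47.7 and 53.3 with JQ1 in SW480, and 0.307, 0.377 and 0.413 RPKM with DMSO and 4.72, 4.98 and 5.88 with JQ1 in HT-29. In COLO205 it read 0.899, 0.573 and 0.8397 RPKM with DMSO and 13.6, 13.2 and 15.3 with JQ1, and in HCT-15 0.514, 0.573 and 0.311 RPKM with DMSO and 3.96, 3.52 and 3.59 with JQ1. COLO320 gave 1.12, 1.21 and 1.301 RPKM with DMSO and 5.195, 5.48 and 5.09 with JQ1, and HCT116 0.307, 0.364 and 0.3701 RPKM with DMSO and 0.618, 0.289 and 0.535 with JQ1. The treatments overlapped in HCT116 alone, where the change did not pass (adjusted p = 0.187 in limma), against a rise of 11.5-fold in COLO205 (adjusted p = 3.51e-20 in limma). The gene model of H3C4 overlaps that of H2AC7, and all of the 50-base windows of its annotated transcript occur in other genes too, so its level is uncertain.

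H3C8 (GeneID 8355) was detected mainly in 3 of the 6 lines. It read 2.33, 2.69 and 2.32 RPKM with DMSO and 22.8, 21.04 and 23.04 with JQ1 in SW480. Libraries of HT-29 read 0.758, 0.436 and 0.956 RPKM with DMSO and 5.72, 5.13 and 6.39 with JQ1, and in COLO205 2.63, 2.65 and 1.81 RPKM with DMSO and 23.8, 23.3 and 23.8 with JQ1. In these 3 lines the treatments were apart, and H3C8 rose 7.75-fold, 5.202-fold and 8.52-fold (adjusted p = 1.96e-18, 1.70e-16 and 5.09e-19 in limma). In HCT116 the 3 DMSO libraries held 0 reads of H3C8 and the 3 JQ1 libraries 2, COLO320 held 0 and 2, and HCT-15 held 1 and 0. A count of 0 allows up to 3 reads, worth between 0.123 and 0.337 RPKM for H3C8 depending on the library, so a change in those lines was not detectable at this depth. The effect on H3C8 differed between lines (adjusted p = 9.44e-18, F test in limma), and its average rise was lost when each line counted as 1 sample. H3C11, at 0.119 RPKM under DMSO, was the H3 gene that did not pass on average.

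H4 was the class with the smallest share of members that rose. H4C8 (GeneID 8365), its most abundant gene, read 7.71, 7.98 and 6.51 RPKM with DMSO and 142, 135 and 137 with JQ1 in SW480, and 1.09, 1.32 and 0.754 RPKM with DMSO and 20.02, 21.4 and 21.6 with JQ1 in COLO205. From HT-29 came 0.237, 0.218 and 0.358 RPKM with DMSO and 3.77, 3.65 and 2.801 with JQ1, and in HCT-15 0.8905, 1.42 and 0.538 RPKM with DMSO and 13.01, 10.3 and 11.1 with JQ1. COLO320 gave 1.05, 1.03 and 0.751 RPKM with DMSO and 3.91, 6.67 and 3.82 with JQ1, and HCT116 0.101, 0 and 0.214 RPKM with DMSO and 0.1099, 0 and 0.112 with JQ1. HCT116 thus held 3 reads without drug and 2 with it, at which depth no change could be seen, and the other 5 lines had no overlap. The rise of H4C8 was 17.6-fold in SW480 and 3.59-fold in COLO320 (adjusted p = 3.63e-17 and 1.47e-09 in limma). In SW480 with JQ1, H4C8 made up 82.5% of the summed RPKM of the H4 genes.

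H4C9 (GeneID 8294) had lower levels and a wider spread. It read 1.11, 0.743 and 1.25 RPKM with DMSO and 6.79, 7.48 and 7.14 with JQ1 in SW480, and 0, 0.2203 and 0 RPKM with DMSO and 1.49, 1.899 and 2.55 with JQ1 in HT-29. In COLO205 it read 0.442, 0.268 and 0.327 RPKM with DMSO and 3.699, 1.97 and 2.56 with JQ1, and in COLO320 0.193, 0.0943 and 0.0949 RPKM with DMSO and 2.07, 1.03 and 2.03 with JQ1. HCT-15 gave 0.30004, 0.765 and 0.363 RPKM with DMSO and 1.22, 0.695 and 0.899 with JQ1, and HCT116 0.205, 0 and 0 RPKM with DMSO and 0.111, 0 and 0.341 with JQ1. The treatments overlapped in HCT-15, where the call was narrow (adjusted p = 0.0398 in limma) and was lost under 6 of the other settings, and in HCT116, where it did not pass. In SW480 the rise of H4C9 was 5.02-fold (adjusted p = 8.25e-10 in limma). Of the 7 H4 genes that did not pass on average, H4C1, H4C2, H4C3, H4C11, H4C13, H4C14 and H4C15, none exceeded 0.5 RPKM in the mean of either treatment, and H4C14 and H4C15 had 3 reads each in all 36 libraries.

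Beyond single genes, the summed RPKM of all members shows how much histone RNA each line carried in these libraries. Without drug SW480 held 504.5 ± 13.8 RPKM (SD, n = 3), COLO205 124 ± 2.22, COLO320 63.0 ± 2.26, HCT-15 49.1 ± 7.01, HT-29 42.3 ± 1.06 and HCT116 27.8 ± 1.51. In that order only HCT-15 and HT-29 differ by less than the larger SD of the 2. With JQ1 the sums were 2741 ± 51.5 in SW480, 988 ± 16.6 in COLO205, 523 ± 5.64 in HCT-15, 387 ± 9.52 in HT-29, 194 ± 11.1 in COLO320 and 61.7 ± 1.55 in HCT116. The ratio of the sums was largest in HCT-15 (10.7), followed by HT-29 (9.15), COLO205, SW480 (5.43), COLO320 (3.08) and HCT116 (2.22). H1-2 and H2BC12, which together made up 51.7% of the members' RPKM over the 36 libraries, both had their largest rise in HCT-15. The untreated level of a member differed between the 6 lines for 43 of 62 members (F test in limma, adjusted p under 0.05), beside 88.6% of all genes.

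The makeup by class also differed between lines. H1 genes gave 1073 of 2741 RPKM in SW480 with JQ1 and 184 of 523 in HCT-15, but 32.2 of 387 in HT-29, where H2B genes gave 188 and H2A genes 127. The H4 sum rose by a ratio of 12.9 in SW480, from 12.9 ± 0.610 to 167 ± 2.73 RPKM (SD, n = 3), and by 1.61 in HCT116, from 1.75 ± 0.567 to 2.83 ± 0.0885. The H3 sum rose by 13.0 in COLO205 and by 2.22 in HCT116. Sums were described and not tested.

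Many H2A and H2B genes lie head to head and share the stretch between them, and 11 such neighbouring pairs within 500 bases were among the members. In 5 pairs both genes had average log2 changes within 0.5 of each other, as in H2AC6 (2.84) and H2BC4 (2.78), H2AC17 (1.41) and H2BC17 (1.46), and H2AC15 (0.97) and H2BC15 (0.95). In 3 pairs they differed by at least 1. H2AC20 averaged 0.64 beside 2.91 for H2BC21, and H2AC12 0.18 beside 1.89 for H2BC12. The reverse held for H2AC13, 2.10, beside 0.22 for H2BC13. H2AC12 averaged only 0.331 RPKM with DMSO and 0.467 with JQ1, and H2BC13 0.206 and 0.36. The log2 scale used understates a change at such levels. In addition, 62.3% of the transcript windows of H2AC13 and 74.1% of those of H2BC12 occur in other genes too. The gap between H2AC12 and H2BC12, or H2AC13 and H2BC13, is therefore not read as different responses of neighbours. H2AC20 was read in all 36 libraries: in COLO320 it had 2.09 ± 0.425 RPKM with DMSO and 3.61 ± 0.875 with JQ1 (SD, n = 3), next to H2BC21 with 4.54 ± 0.252 RPKM with DMSO and 27.1 ± 0.903 with JQ1. In HCT-15 H2AC20 had 0.782 ± 0.0813 RPKM with DMSO and 0.636 ± 0.276 with JQ1 and did not pass (adjusted p = 0.524 in limma), while H2BC21 rose 12.1-fold. The HCT-15 values of H2AC20 rest on 29 reads with DMSO and 23 with JQ1. Of its transcript windows, 30.5% occur in other genes too. The difference within a pair was not tested. H2AC8 and H2BC8 both rose in 4 lines, H2BC8 by 19.8-fold in HT-29 and H2AC8 by 7.67-fold. Neither passed in HCT116 or HCT-15 (adjusted p of H2BC8 0.538 and 0.172 in limma), where both had few reads. H2AC8 had 2 reads with DMSO and 1 with JQ1 in HCT116, and 3 and 11 in HCT-15. H2BC8 had 2 and 4 in HCT116, and 2 and 8 in HCT-15. A change in these 2 lines was hardly detectable at this depth.

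**Figure D4:**
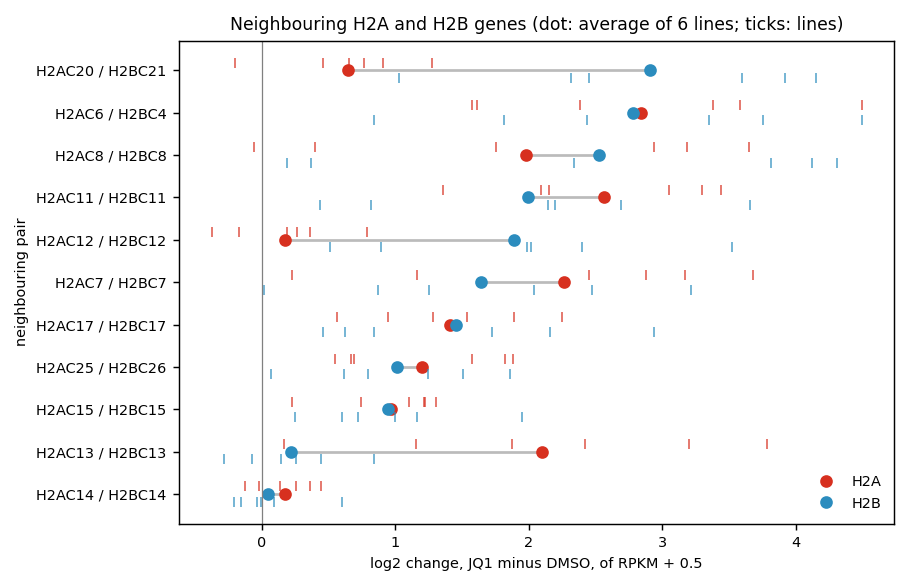
Average log2 change of RPKM + 0.5, JQ1 minus DMSO (horizontal axis), of the H2A gene (red) and the H2B gene (blue) of 11 neighbouring pairs (vertical axis); ticks are the 6 lines. Grey bars join the 2 averages: they are longest for H2AC20 and H2BC21, H2AC13 and H2BC13, and H2AC12 and H2BC12.

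By chromosome, 50 members lie on chromosome 6, 11 on chromosome 1 and 1, H4C16, on chromosome 12. Of those on chromosome 6, 40 rose on average with a median log2 change of 0.99, and of those on chromosome 1, 9 rose with a median of 0.64. H4C16 rose too, by 0.79.

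The 3′ ends of the annotated transcripts were compared with the responses, since the hairpin is where most of these mRNAs end. A hairpin of 16 bases, 2 stem arms of 6 around a loop of 4, was found in GENCODE release 29 transcripts of 28 members. It is given for one gene of each core class with the loop in capitals, H2AC6, H2BC5, H3C10 and H4C8.
H2AC6: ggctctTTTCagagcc
H2BC5: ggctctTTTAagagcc
H3C10: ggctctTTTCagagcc
H4C8: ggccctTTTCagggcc
In 20 members an annotated transcript ran more than 100 bases past the hairpin, for example by 1128 bases in H2AC6, 1729 in H2BC21, 769 in H3C10 and 1655 in H4C8. Of these 20, 18 rose and 14 at least 2-fold, with a median log2 change of 1.32. In 8 members every annotated transcript with a hairpin ended within 100 bases of it; 6 rose, 3 at least 2-fold, with a median of 0.24. In the other 34, whose annotated transcripts hold no hairpin, 26 rose with a median of 0.84. Several of these transcripts are shorter than the gene model behind the RPKM. They have 642 bases against 732 for H1-2, 381 against 839 for H2BC12 and 411 against 864 for H3C4. A hairpin missing from the annotation therefore does not show that the mRNA lacks one. The 3 groups also differ in level, with median RPKM of 2.20, 0.229 and 0.546, and the part of level in this order was not tested. H2BC5, the largest rise of all, belongs to the 8, with 39 bases after its hairpin. Of its 2 annotated transcripts the longer, of 789 bases, holds no hairpin, so H2BC5 is not shown to end there.

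Near-identical copies limit what can be said of single members. In 15 members at least 50% of the 50-base windows of the annotated transcripts also occur in another gene, and in 25 members none do, among them H1-2, H1-5, H3C8, H3C10 and H4C8. The labels do not say how the authors divided such reads.

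Genes that serve histone supply did not follow the members. Of 15 S phase genes, which encode replication factors such as the MCM helicase, 0 rose and 15 fell on average in limma (background 32% higher and 41.8% lower), with a median log2 change of -0.58. No S phase gene was higher at an unadjusted p either, since all 15 passed as lower, and voom on the recovered reads gave 0 higher and 15 lower too. The largest falls were MCM5, from 76.6 to 36.03 RPKM (log2 change -1.10, adjusted p = 3.40e-33 in limma), CDC45 (-0.79) and MCM2 (-0.77). In HCT116 3 of the 15 rose and 11 fell (23.5% of all genes higher and 27.7% lower), with a median of -0.21. In HT-29, where 38 histone genes rose, all 15 fell (28.2% of all genes lower) with a median of -1.002. RRM2, the small subunit of ribonucleotide reductase, rose in HCT116 (0.73) and HCT-15 (0.71) and fell in HT-29 (-0.77).

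The genes for transcript ends and for transcription changed less. The counts on average stand beside 32% of all genes that were higher and 41.8% that were lower. Of 15 genes for histone 3′ end processing and decay 3 rose and 12 fell, with a median of -0.10; the largest changes were LSM11 (-0.83) and LSM10 (-0.52), both parts of the U7 particle that cuts histone mRNA, and CSTF2 (-0.38). SLBP itself went from 104 to 99.6 RPKM (-0.09, adjusted p = 2.00e-10 in limma). Of 14 genes for histone transcription 4 rose and 10 fell, with a median of -0.18; the largest changes were a rise of NFYA (0.58), a subunit of the CCAAT-binding factor, and falls of CCNE1 (-0.48) and NFYB (-0.40). NPAT, the coactivator of histone genes, rose by 0.12. All 11 genes of histone chaperones and assembly fell and 0 rose, in limma and in voom, with a median of -0.16, led by CHAF1A (-0.59), DAXX (-0.58) and HIRA (-0.48). In HCT116 4 of the 11 chaperone genes were higher and 3 lower, with a median of 0.04, ASF1B being highest (0.42). Of all genes there 23.5% were higher and 27.7% lower, so with 11 genes these counts lie near the background.

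The histone variants that are made outside S phase were mixed, with 7 of 11 higher, 4 lower and a median of 0.50. Of all genes 32% were higher and 41.8% lower. H1-10, a linker histone variant, rose by 1.00. MACROH2A2 fell from 14.4 to 5.38 RPKM (log2 change -1.30, adjusted p = 3.55e-26 in limma), in all 6 lines.

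**Figure D5:**
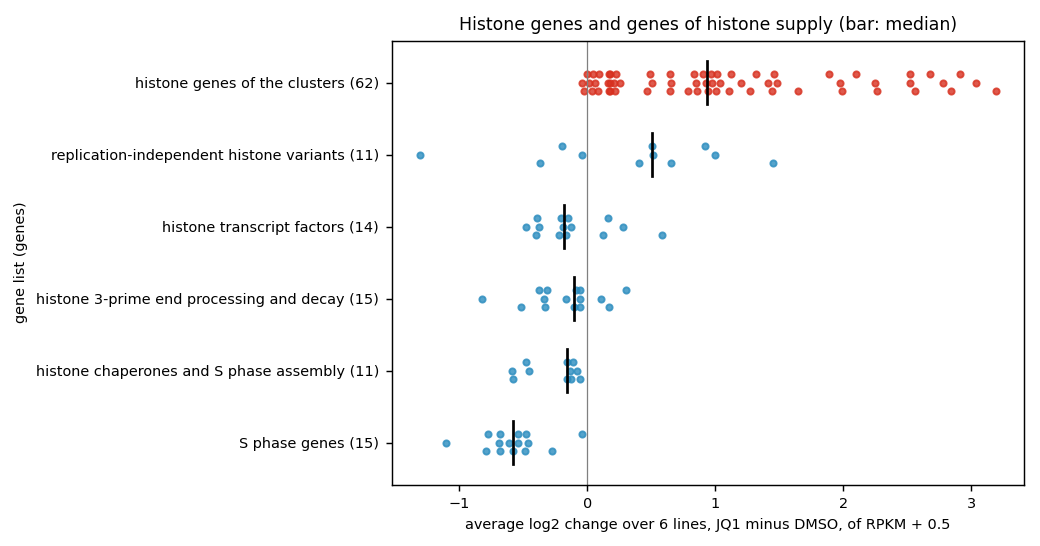
Average log2 change over 6 lines of RPKM + 0.5, JQ1 minus DMSO (horizontal axis), of the 62 histone genes (red) and of 5 other gene lists (blue, vertical axis); each point is 1 gene and bars are medians. The members reach from about 0 to 3.19 with a median of 0.94, and the S phase genes lie to the left of 0 with a median of -0.58.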

How the data were processed

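RNA of 6 colon cancer lines was sequenced in 36 libraries. The deposited table holds 1 RPKM value (reads per kilobase of gene model, scaled to library size) per Entrez GeneID and library, computed by the authors. Tools named in the submitters' processing notes, with no version or role, are GSNAP, limma and DESeq, and the build listed there is NCBIM37, a mouse name, so no coordinate was taken from it. Poly(A) selection, strand and the treatment of reads that match several genes are not given in the sources used here. Whole reads could be recovered from the RPKM steps for 100% of the 23499 genes above 0 in any library, within 0.01 reads.

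The members and gene lists were chosen with earlier results of these data known. limma 3.58.1 in R 4.3.3 was fitted to log2(RPKM + 0.5) with 12 group means, a variance trend and 24 residual degrees of freedom, over the 22150 genes above 0 in at least 3 libraries. Tested were the difference of JQ1 from DMSO per line, the mean of these 6 differences and, by F tests, differences between lines, with Benjamini-Hochberg adjustment over all genes and a threshold of 0.05. The procedure was tested on simulated data. Summaries and figures used Python 3.11.15 (pandas 2.3.3, matplotlib 3.10.9, numpy 2.4.6). Alternatives were pseudocounts of 0.1 and 1, an RPKM filter and no filter, 3 other scalings, no trend, voom on recovered reads, the replicate block, each line alone, the line as the unit, and leaving out each library.

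Named with values were, in each class, the member with the highest mean, the 2 with the largest average rise and the 1 with the largest average fall that passed (no member fell); the largest change of each line; the 3 smallest p-values between lines; the 3 highest without drug; and from each other list the 3 largest changes. Further genes were named after their values were seen. A gene that the rule names is not reported here. Replicate numbers do not pair the samples: deviations of DMSO and JQ1 libraries with the same number correlated from -0.16 to 0.07 over 13420 genes. Replicates of a group differed by more than counting noise, so each counted as 1 sample (chi-square per gene from 1.23 to 3.21 in 36 pairs, genes with at least 20 reads). Promoters are RefSeq's (GRCh38.p14), and stem-loops and shared windows come from GENCODE release 29 transcripts.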

Additional observations from a re-analysis of the deposited data

Results flagged for a closer look

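The response to JQ1 differed between the 6 lines for 49 of the 62 histone genes by limma's F test, 79.0%, a share near the 77.6% of all genes tested. The smallest adjusted p belonged to H2BC21 (1.00e-21, F test in limma), whose log2 change went from 1.03 in HCT116 to 4.15 in HT-29. H2BC12 followed (adjusted p = 1.09e-21, F test in limma), with log2 changes from 0.51 in HCT116 to 3.52 in HCT-15. For H3C8 (adjusted p = 9.44e-18, F test in limma) the change passed the test in SW480, HT-29 and COLO205, while each group of the other 3 lines held at most 2 reads over its 3 libraries.

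A signal also appeared in a gene that no comparison used. The pseudogene H2BC20P, left out of the members, averaged 0.528 RPKM without drug and 2.18 RPKM with JQ1. Its group means with JQ1 ran from 0.705 RPKM in HCT116 to 3.91 in COLO320, and without drug from 0.218 in HCT116 to 1.13 in COLO320. These rest on 10 to 183 reads per group, and the part of reads shared with H2B genes was not tested.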

How the results depend on the processing

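All counts here are of the 62 members. With the cell line as the unit, 33 members were higher on average, against 50, and the share of all genes under that setting is not given. In HT-29, where no member was lower, 1 (H2BC10) was lower at a pseudocount of 0.1 and 2 (H2BC10 and H3C11) with voom on recovered reads. Leaving out 1 library gave from 0 to 2 lower members in HT-29 (H3C11 and H2AC12 without DMSO replicate 3 of that line, H2BC10 without its JQ1 replicate 2, H3C11 without SW480 JQ1 replicate 3). The same gave from 0 to 1 in COLO205 (H4C1, without DMSO replicate 3) and from 0 to 1 in HCT-15 (H4C13 without DMSO replicate 1 or 2, H2BC13 without JQ1 replicate 3). Each of these members had at most 15 reads per group in that line, and the cause was not tested.

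Class medians of the average log2 change moved with the scale. At a pseudocount of 0.1 they were 1.64 for H1, 1.41 for H2A, 1.57 for H2B, 1.39 for H3 and 0.53 for H4. At a pseudocount of 1 they were 0.86 for H1, 0.66 for H2A, 0.89 for H2B, 0.66 for H3 and 0.12 for H4. With voom they were 2.12 for H1, 1.62 for H2A, 1.92 for H2B, 1.90 for H3 and 0.67 for H4. A smaller pseudocount shrinks low values less. Requiring an RPKM of at least 1 in 3 libraries left 44 members and gave 1.41 for H2A, 1.55 for H2B and 1.06 for H4. A gene can pass that filter through its JQ1 libraries alone, which favours genes that rose, so no order of classes is read from it. Quantile scaling gave 1.25 for H1.

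Of 1183 comparisons of 91 results on named members with an alternative, 1166 kept direction and side of the threshold, 8 lost the call, 9 gained it and none reversed. The average rise of H1-5 and of H3C8 was lost with the line as the unit, and the rise of H4C9 in HCT-15 under 6 settings. The count of members higher on average ranged from 48 to 52 with 1 library left out. The call was lost without any 1 of 25 libraries for H3C7, 7 for H2AC4, 6 for H2BC10 and 3 for H2BC13. With the replicate block 50 members were higher on average, as without it, though the numbers do not pair these samples. No members had identical values, so counting such members once was not run. Members with few reads limit these counts.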
